A study of Mus musculus with 6 samples.

Results

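The genes of the myostatin, activin and TGF-β pathway were measured by bulk RNA-seq in primary myoblasts, the muscle progenitor cells grown from digested hind-limb muscle. The 10 genes were chosen by name, as 5 ligands (Mstn, Inhba, Tgfb1, Tgfb2, Tgfb3), 2 secreted antagonists (Fst, Fstl3) and 3 receptors (Tgfbr1, Tgfbr2, Acvr2b), out of 54532 genes in the tables. All 10 were listed, and 9 passed the expression filter, Mstn being the exception. The study asked how the translation factor eIF5A acts in muscle stem cells, and compared 3 WT libraries with 3 libraries labelled eIF5A-KO (eIF5A knockout), each at day 2 of culture in proliferation conditions with 10% serum and 10 µg/ml FGF. The knockout carried Pax7 CreERT2/+ with eIF5A f/f alleles and was induced with tamoxifen, and the myoblasts came from mice 3 weeks of age and from WT littermates. For the adult experiments of the study the WT genotype is given in conflicting ways, as Pax7 CreERT2/+ in one place and as Pax7 +/+ with eIF5A f/f in another, and whether the WT libraries used here carried Cre or the floxed alleles is not stated. The Pax7 promoter drives this Cre in satellite cells, the stem cells of muscle, and recombination was not measured in these libraries. Whether the libraries of a genotype came from separate animals is not stated, and the p-values measure the spread between these libraries, which may be technical.

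Ligands of this family are secreted as precursors and act as dimers. Myostatin and activin A, the dimer of the Inhba product, bind the type II receptor ACVR2B or its relative ACVR2A, whereas the TGF-β isoforms bind TGFBR2, and each complex then recruits a type I receptor, which is TGFBR1 for TGF-β. The type I receptor phosphorylates SMAD2 and SMAD3, which enter the nucleus with SMAD4. Follistatin (Fst) and follistatin-like 3 (Fstl3) bind activin and myostatin and keep them from their receptors. In skeletal muscle, myostatin is known as a brake on muscle mass, and TGF-β is known to restrain the differentiation of myoblasts and to drive matrix production by fibroblasts.

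Reads counted on genes numbered from 16281216 to 17734551 per library, and 14679 genes were tested. The transcript of the targeted gene did not separate the groups: Eif5a had 1603, 986 and 1238 CPM (read counts relative to TMM-adjusted library size) in WT replicates 1 to 3 and 1364, 1459 and 1059 CPM in replicates 1 to 3 labelled eIF5A-KO. Its log2 difference, here and below the log2 fold change of eIF5A-KO over WT, was 0.02 (adjusted p = 0.993 in edgeR) and was below 0 without WT replicate 2 or without replicate 1 or 2 labelled eIF5A-KO. For adult mice, the paper measured the knockout in satellite cells by RT-PCR of the mRNA and by immunostaining of the protein, and took it as established. In the libraries used here the counts do not separate the floxed exons, and the groups are therefore named by their labels throughout. WT replicate 1 stood apart, with 5.75% of its counts on mitochondrial genes against 2.11% to 3.50% elsewhere. Markers of myogenic cells were present, and their summed level was 615 to 1560 CPM in WT and 622 to 1150 CPM in libraries labelled eIF5A-KO, but endothelial markers summed to 1650 to 3180 CPM and 2920 to 4260 CPM and fibroblast markers to 1650 to 2100 CPM and 1780 to 2010 CPM, so the cultures also held transcripts of other cell types. The endothelial sum, over 10 genes, was above the myogenic sum, over 8 genes, in every library. Ly6a and Cd34 had the highest levels of the fibroblast list, with 618 to 852 CPM and 424 to 566 CPM over the 6 libraries.

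None of the 10 genes passed an adjusted p under 0.05 between the groups. Among the 9 tested members 0 were called by edgeR, DESeq2 or limma, where 3 of 14679 genes, 0.0204%, were called by edgeR over the whole table, 88 genes (0.6%) by DESeq2 and 0 by limma. At an unadjusted p under 0.05, 2 of the 9 stood out, Tgfb1 with a higher and Tgfbr1 with a lower level in libraries labelled eIF5A-KO, against 6.76% of all tested genes. A fold change over 2 together with such a p was met by 0 of the 9, against 1.85% of all genes. Separate groups, without overlap, were seen for 3 of the 9, against 12.5% of all genes: Tgfb1 and Tgfb3 were higher (5.68% of all genes in that direction) and Tgfbr1 was lower (6.83%). Of the 9, 6 had a positive and 3 a negative log2 difference, and the median was 0.15, beside -0.01 over all tested genes. With single libraries left out, the median ran from 0.077 without WT replicate 3 to 0.28 without WT replicate 1 (0.25 without replicate 1 labelled eIF5A-KO), and 5 to 8 of the 9 were positive, the 8 without WT replicate 2. In these bulk samples fewer cells of a type and less RNA per cell cannot be told apart.

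**Figure D1:**
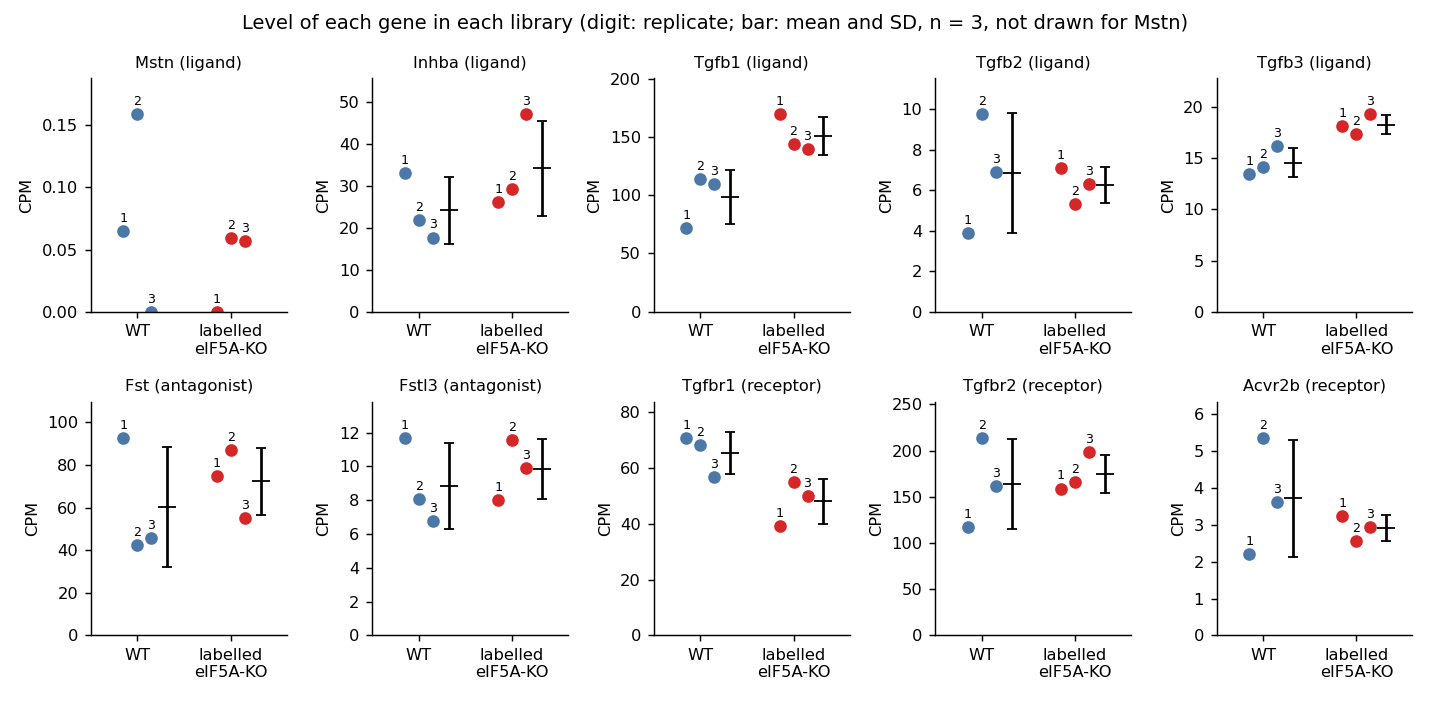
Level of the 10 genes in CPM (vertical axis, from 0, a separate scale in each panel) in the 3 WT libraries (blue) and the 3 labelled eIF5A-KO (red), with the replicate number above each point and the mean and SD (n = 3) beside it, except for Mstn. Tgfb1 and Tgfb3 lie higher and Tgfbr1 lower in all 3 libraries labelled eIF5A-KO, and Mstn lies at or below 0.159 CPM in all 6.

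Mstn, the gene of myostatin, was close to silent in these proliferating cultures. It lies at chr1:53061640-53068079 (plus strand) in 3 exons (GRCm38), and 1, 3 and 0 reads were counted on it in WT replicates 1 to 3 and 0, 1 and 1 reads in replicates 1 to 3 labelled eIF5A-KO. The group totals were 4 reads (exact 95% Poisson interval 1.09 to 10.2) of 50686182 and 2 reads (0.242 to 7.22) of 51437787, intervals that cover counting error only. Every library was at or below 3 reads, so no fold change is given, and a difference between levels this low was not detectable at this depth.

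Tgfb1, which encodes the TGF-β isoform with the broadest known expression, had the highest mean FPKM over the 6 libraries among the 10 genes. By group, Tgfb1 and Tgfbr2 were close in WT (means of 19.3 and 19.8 FPKM, with Tgfbr2 above Tgfb1 in 2 of 3 libraries), and Tgfb1 was above Tgfbr2 in all 3 libraries labelled eIF5A-KO (29.8 and 21.2 FPKM). It lies at chr7:25687002-25705077 (plus strand), with transcripts of up to 7 exons and no other annotated gene over it. Its level was 71.8, 114 and 110 CPM in WT replicates 1 to 3 and 170, 144 and 140 CPM in replicates 1 to 3 labelled eIF5A-KO. All 3 libraries labelled eIF5A-KO lay above all 3 WT libraries, and the lowest value was that of WT replicate 1. The means were 98.5 ± 23.2 CPM and 151 ± 16.4 CPM (SD, n = 3 each), a log2 difference of 0.62 (SE 0.21, 95% confidence interval 0.15 to 1.09), or 1.53-fold. The unadjusted p was 0.0156 and the adjusted p 0.557 in edgeR, so the difference did not pass the test over all genes. Without WT replicate 1 the log2 difference was 0.44 (unadjusted p = 0.0213), and without replicate 1 labelled eIF5A-KO it was 0.53 (unadjusted p = 0.0608, above 0.05).

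The stretches of 250 bases before the annotated starts of Mstn, Tgfb1 and Tgfbr1 are shown because these genes are the least abundant ligand, the most abundant ligand and the receptor with the lowest unadjusted p. They are RefSeq sequences of GRCm38.p6 on the plus strand at chr1:53061390-53061639, chr7:25686752-25687001 and chr4:47352972-47353221. Capitals mark matches, on either strand, to the TATA box TATAAA, the E-box CANNTG that myogenic bHLH factors read, the GC box GGGCGG and the letters CAGAC that SMAD proteins can bind, and no matches overlap in these windows.
Mstn: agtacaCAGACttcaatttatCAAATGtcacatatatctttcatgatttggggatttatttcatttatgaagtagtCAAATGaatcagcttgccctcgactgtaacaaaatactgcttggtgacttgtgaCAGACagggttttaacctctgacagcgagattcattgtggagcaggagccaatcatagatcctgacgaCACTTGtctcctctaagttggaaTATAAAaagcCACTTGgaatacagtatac
Tgfb1: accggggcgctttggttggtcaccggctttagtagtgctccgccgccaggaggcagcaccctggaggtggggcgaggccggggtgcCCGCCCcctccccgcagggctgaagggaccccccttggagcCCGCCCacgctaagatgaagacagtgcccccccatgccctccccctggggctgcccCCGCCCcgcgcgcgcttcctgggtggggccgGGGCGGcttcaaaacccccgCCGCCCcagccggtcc
Tgfbr1: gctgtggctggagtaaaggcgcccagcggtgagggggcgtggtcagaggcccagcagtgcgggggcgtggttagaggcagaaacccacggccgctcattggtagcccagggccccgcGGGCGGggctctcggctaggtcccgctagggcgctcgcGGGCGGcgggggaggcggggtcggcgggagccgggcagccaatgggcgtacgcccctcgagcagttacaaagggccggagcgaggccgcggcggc
The Mstn window held 1 TATA box, 4 E-boxes, 2 CAGAC matches and 0 GC boxes at a GC content of 38.4%. The Tgfb1 window held 5 GC boxes and 0 of the other motifs at 75.2% GC, and the Tgfbr1 window held 2 GC boxes and 0 of the others at 74.8%. Over the 32851 windows of this length in the table, 12.4% held the TATA box, 66.2% the E-box, 32.7% the GC box and 42.2% CAGAC, and the median GC content was 52.4%. These letters describe the windows and identify no bound site. Tgfbr1 had a further annotated start, whose bases are not shown. The window before it held 1 E-box, 1 CAGAC match, 0 GC boxes and 0 TATA boxes at 52.8% GC. Of the 10 genes 8 had an entry, Tgfb3 and Fst being the others.

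Tgfb3, the isoform known from palate and tendon development, also had groups that did not overlap. It lies at chr12:86056745-86079041 (minus strand). It had 13.4, 14.1 and 16.2 CPM in WT replicates 1 to 3 and 18.2, 17.4 and 19.3 CPM in replicates 1 to 3 labelled eIF5A-KO. The 3 libraries of each group lay close together, and the gap ran from the highest WT value, in replicate 3, to the value of replicate 2 labelled eIF5A-KO. The means were 14.6 ± 1.43 CPM and 18.3 ± 0.969 CPM (SD, n = 3 each). The log2 difference of 0.33 (SE 0.17, 95% confidence interval -0.07 to 0.72) had an unadjusted p of 0.0922 and an adjusted p of 0.815 in edgeR. It stayed above 0 in all 14 alternatives, from 0.28 to 0.41.

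Tgfb2, at chr1:186622792-186705989 (minus strand), was the least abundant TGF-β isoform. It had 3.88, 9.76 and 6.91 CPM in WT replicates 1 to 3 and 7.10, 5.33 and 6.29 CPM in replicates 1 to 3 labelled eIF5A-KO. The WT libraries held both the lowest and the highest value, and the groups overlapped. Its log2 difference was -0.14 (95% confidence interval -0.89 to 0.61, adjusted p = 0.975 in edgeR) and turned to 0.21 without WT replicate 2. Set against each other per length, in FPKM (fragments per kilobase, scaled by median-of-ratios size factors), Tgfb1 made up 75.4%, 79.4% and 78.5% of the summed TGF-β isoforms in WT replicates 1 to 3 and 83.6%, 82.5% and 80.3% in replicates 1 to 3 labelled eIF5A-KO. These shares did not overlap between the groups and were not tested, since they follow from the levels already given.

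Inhba, at chr13:16011851-16031621 (plus strand), encodes the subunit of activin A. It had 33.0, 21.7 and 17.7 CPM in WT replicates 1 to 3 and 26.2, 29.1 and 47.1 CPM in replicates 1 to 3 labelled eIF5A-KO. The groups overlapped, with WT replicate 1 above 2 of the libraries labelled eIF5A-KO, and replicate 3 labelled eIF5A-KO was the highest. Its log2 difference was 0.50 (SE 0.29, 95% confidence interval -0.16 to 1.16, unadjusted p = 0.12, adjusted p = 0.839 in edgeR). It was 0.80 without WT replicate 1 (unadjusted p = 0.0105, adjusted p = 0.31) and 0.20 without replicate 3 labelled eIF5A-KO (unadjusted p = 0.497), and without an expression filter its unadjusted p was 0.0249, so that its size and its unadjusted p depended on these settings.

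Both antagonists varied more within the WT group than between the groups. Fst, at chr13:114452290-114458951 (minus strand), had 92.8, 42.5 and 45.8 CPM in WT replicates 1 to 3 and 74.7, 86.9 and 55.3 CPM in replicates 1 to 3 labelled eIF5A-KO. The highest value of all 6 was that of WT replicate 1, and the other 2 WT libraries had the lowest. For Fst the log2 difference was 0.26 (SE 0.31, 95% confidence interval -0.44 to 0.96, adjusted p = 0.943 in edgeR), and without WT replicate 1 it was 0.72 (unadjusted p = 0.00542, adjusted p = 0.239). It was 0.063 without WT replicate 2 (unadjusted p = 0.839), 0.097 without WT replicate 3, 0.12 without replicate 2 and 0.42 without replicate 3 labelled eIF5A-KO. Fstl3, at chr10:79777272-79782630 (plus strand), had 11.7, 8.06 and 6.79 CPM in WT replicates 1 to 3 and 8.01, 11.6 and 9.92 CPM in replicates 1 to 3 labelled eIF5A-KO. Here too WT replicate 1 was the highest and the groups overlapped. For Fstl3 it was 0.15 (95% confidence interval -0.44 to 0.74, adjusted p = 0.962 in edgeR), with 0.41 without WT replicate 1 and -0.0038 without WT replicate 3.

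The antagonist Fst exceeded the activin subunit per length in every library. The ratio of their FPKM values was 3.91, 2.72 and 3.61 in WT replicates 1 to 3 and 3.97, 4.15 and 1.64 in replicates 1 to 3 labelled eIF5A-KO. Replicate 3 labelled eIF5A-KO, with the most Inhba, had the lowest ratio, and the groups overlapped. Fst was 2.81 to 4.97 times the level of Fstl3 across the 6 libraries.

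Among the receptors, Tgfbr1, the type I receptor of TGF-β, was lower in libraries labelled eIF5A-KO. It lies at chr4:47353222-47414931 (plus strand) with up to 10 exons. It had 70.8, 68.3 and 56.6 CPM in WT replicates 1 to 3 and 39.1, 55.0 and 50.0 CPM in replicates 1 to 3 labelled eIF5A-KO. The groups did not overlap, though WT replicate 3 lay close to replicate 2 labelled eIF5A-KO. The means were 65.2 ± 7.57 CPM and 48.0 ± 8.13 CPM (SD, n = 3 each), a log2 difference of -0.44 (SE 0.19, 95% confidence interval -0.87 to -0.01). The unadjusted p was 0.0442 and the adjusted p 0.715 in edgeR. The direction held in all 14 alternatives, from -0.54 to -0.30, but the unadjusted p was under 0.05 in 7 of them and reached 0.174 without replicate 1 labelled eIF5A-KO.

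Tgfbr2, the receptor that binds TGF-β itself, lies at chr9:116084293-116175360 (minus strand). It had 117, 214 and 161 CPM in WT replicates 1 to 3 and 159, 166 and 198 CPM in replicates 1 to 3 labelled eIF5A-KO. WT replicates 1 and 2 were the lowest and the highest of all, and the libraries labelled eIF5A-KO fell between them. Its log2 difference was 0.09 (95% confidence interval -0.43 to 0.60, adjusted p = 0.976 in edgeR), and it was -0.10 without WT replicate 1 and -0.01 without replicate 3 labelled eIF5A-KO. Per length, Tgfbr2 was 1.32, 2.50 and 2.28 times Tgfbr1 in WT replicates 1 to 3 and 3.25, 2.41 and 3.16 times in replicates 1 to 3 labelled eIF5A-KO. These ratios overlapped between the groups.

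Acvr2b, the type II receptor of myostatin and activin, had few reads. It lies at chr9:119402118-119434995 (plus strand), and 34, 101 and 61 reads were counted in WT replicates 1 to 3 and 53, 43 and 52 in replicates 1 to 3 labelled eIF5A-KO. In CPM these were 2.20, 5.36 and 3.60 against 3.24, 2.55 and 2.95, with WT replicates 1 and 2 at the extremes. The log2 difference was -0.36 (SE 0.35, 95% confidence interval -1.16 to 0.44, adjusted p = 0.923 in edgeR), and it was -0.61 without WT replicate 1 and 0.0038 without WT replicate 2. Per length, Tgfbr2 was between 19.2 and 32.2 times as abundant as Acvr2b.

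**Figure D2:**
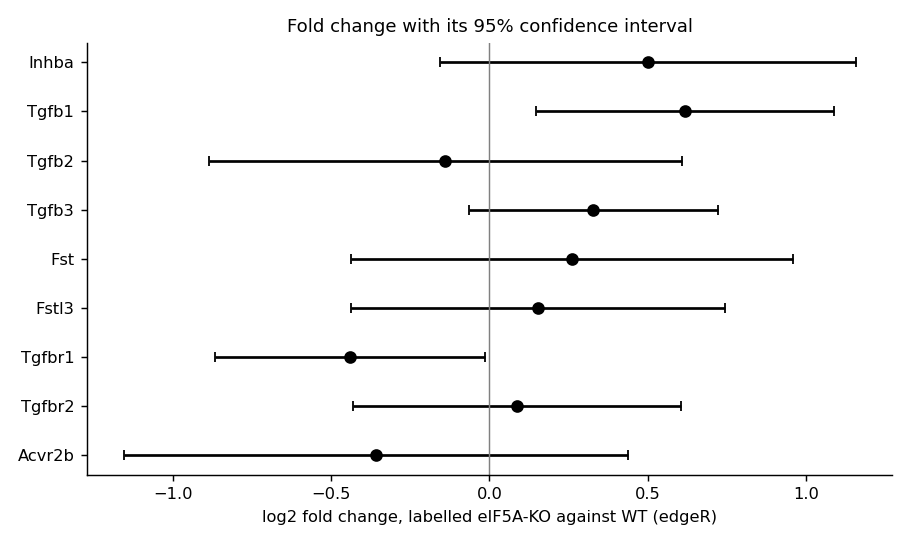
Log2 difference of the 9 tested genes, libraries labelled eIF5A-KO against WT (horizontal axis), with the 95% confidence interval from edgeR as bars. The intervals of Tgfb1 (0.15 to 1.09) and Tgfbr1 (-0.87 to -0.01) leave out 0 before adjustment, and the other 7 include it.

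Ordered by mean FPKM over the 6 libraries, the levels ran from Tgfb1 (24.5 ± 6.73, SD, n = 6 libraries) and Tgfbr2 (20.5 ± 4.13) over Fst (14.3 ± 4.61) and Tgfbr1 (8.58 ± 1.76) to Tgfb3 (4.82 ± 0.694), Inhba (4.52 ± 1.61), Fstl3 (3.79 ± 0.821), Tgfb2 (1.12 ± 0.337), Acvr2b (0.837 ± 0.281) and Mstn (0.0207 ± 0.0213). Neighbours in this order were often not separated. Tgfb1 exceeded Tgfbr2 in 4 of 6 libraries, Tgfb3 exceeded Inhba in 4, Inhba exceeded Fstl3 in 4, and Fst exceeded Tgfbr1 in 5, all with overlapping ranges. The ranges of Tgfbr1 and Tgfb3, of Fstl3 and Tgfb2, and of Acvr2b and Mstn did not overlap.

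**Figure D3:**
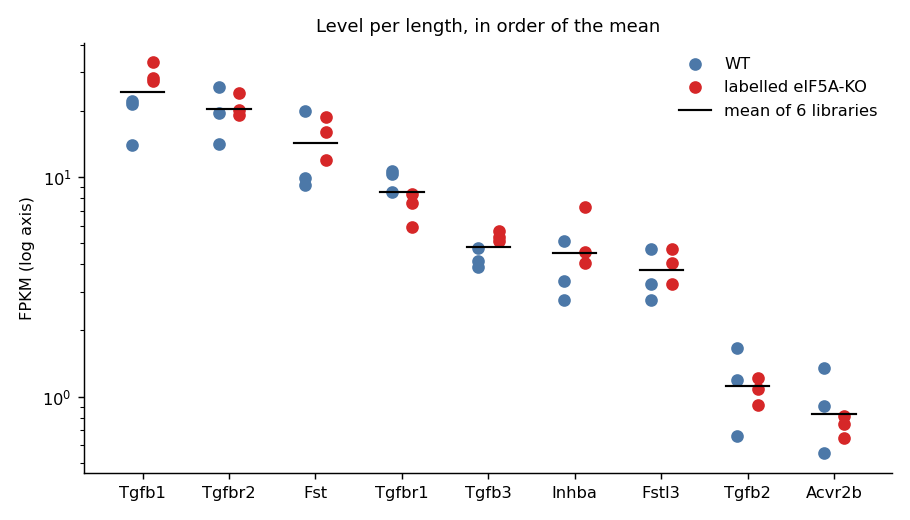
FPKM (log axis) of 9 genes, with Mstn left out because 2 of its values are 0, in the 3 WT libraries (blue) and the 3 labelled eIF5A-KO (red), ordered by the mean of the 6 libraries (black line). Tgfb1 and Tgfbr2 share the top range, and Tgfb2 and Acvr2b lie at the bottom with means of 1.12 and 0.837.

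As a description of likeness, the tested gene of at least 5 CPM whose log2 CPM followed each member most closely over the 6 libraries was looked up among about 11037 candidates. The closest gene was Dym for Tgfb1, Cyp2j9 for Tgfb3, Ptpn21 for Tgfb2, Acsbg1 for Inhba, Metrnl for Fst, Apobec1 for Fstl3, Pkia for Tgfbr1 and Runx1 for Acvr2b. With 6 libraries and so many candidates a close match is easily found, and these names are descriptive only.

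Beyond the 10 genes, 65 other genes of the wider pathway were listed by role, of which 62 were tested. An unadjusted p under 0.05 was found for 14, of which 13 were higher in libraries labelled eIF5A-KO (2.74% of all tested genes) and 1 was lower (4.02%), and 0 passed an adjusted p under 0.05 in edgeR. The groups did not overlap for 17 higher genes and 1 lower gene of the 62, where 5.68% and 6.83% of all tested genes did so. A positive log2 difference was found for 45 of the 62, against 48.3% of all tested genes, with a median of 0.17 beside -0.01. With single libraries left out, 36 (without WT replicate 1) to 53 (without WT replicate 2) of the 62 were positive, and the median reached 0.35 without WT replicate 2. DESeq2 called 4 of them, Grem1, Smad6, Bgn and Id2, with adjusted p-values of 0.022, 0.00432, 0.00222 and 0.0152, where it called 88 genes, 0.6% of all with an adjusted p. All these genes were measured in the same 6 libraries, and the lists were chosen with earlier results of these data known. The counts are therefore no independent tests.

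Among the other ligands, 4 of 6 were higher and 2, both higher, had an unadjusted p under 0.05 (2.74% of all tested genes were higher at that p, here and in the lists that follow). Bmp4, a bone morphogenetic protein that signals through SMAD1 and SMAD5, went from 13.2 ± 0.278 to 19.4 ± 2.12 CPM (SD, n = 3 each), a log2 difference of 0.55 (adjusted p = 0.52 in edgeR). Gdf15, a stress-induced family member and the most abundant of this list per length, had 290, 402 and 504 CPM in WT and 800, 524 and 555 CPM in libraries labelled eIF5A-KO, a log2 difference of 0.65 (adjusted p = 0.644). Of 7 tested other receptors only Eng, the endothelial co-receptor endoglin and the most abundant of its list, had an unadjusted p under 0.05. Eng had 292, 487 and 518 CPM in WT and 854, 632 and 836 CPM in libraries labelled eIF5A-KO, a log2 difference of 0.84 (adjusted p = 0.491).

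Extracellular regulators included 4 of 17 tested genes with an unadjusted p under 0.05, all higher in libraries labelled eIF5A-KO. Bgn encodes biglycan, a matrix proteoglycan that can bind TGF-β, and had the highest mean FPKM of the list over the 6 libraries, although in WT alone it came after Dcn and Thbs1. It had 865, 816 and 872 CPM in WT replicates 1 to 3 and 1615, 1602 and 1293 CPM in replicates 1 to 3 labelled eIF5A-KO, a log2 difference of 0.82 (SE 0.18, adjusted p = 0.362 in edgeR). The groups were far apart beside their spread. Grem1, the secreted BMP antagonist gremlin 1, went from 7.56 ± 3.07 CPM in WT to 18.4 ± 4.96 CPM in libraries labelled eIF5A-KO (SD, n = 3 each). Its log2 difference of 1.29 (SE 0.31, adjusted p = 0.396) was the highest of the 62 genes. Thbs1, whose product thrombospondin 1 can activate latent TGF-β, had a log2 difference of 0.56 (adjusted p = 0.691), and Ltbp2, a latent TGF-β binding protein family member found on microfibrils, one of 0.74 (adjusted p = 0.545).

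Intracellular transducers included 2 of 14 genes with an unadjusted p under 0.05. Smad6, an inhibitory SMAD that acts mainly on BMP signalling, had 42.7, 31.9 and 38.5 CPM in WT replicates 1 to 3 and 86.6, 66.5 and 65.3 CPM in replicates 1 to 3 labelled eIF5A-KO. Its log2 difference of 0.95 (SE 0.19) had the lowest unadjusted p of the 62 genes, 0.000749, and an adjusted p of 0.323 in edgeR. Pmepa1, a TGF-β-induced gene whose product limits SMAD2 and SMAD3 signalling, had 98.5, 93.5 and 93.1 CPM in WT and 147.5, 120.1 and 154 CPM in libraries labelled eIF5A-KO, a log2 difference of 0.56 (adjusted p = 0.484). Fkbp1a, which encodes the FKBP12 protein that holds type I receptors inactive and is the most abundant of the list, had a log2 difference of 0.17 (adjusted p = 0.935) with overlapping groups.

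Of 18 genes known as targets of the pathway, 16 had a positive log2 difference, and the median of the list was 0.37, the highest among the 5 roles. Over all tested genes 48.3% were positive and the median was -0.01. The list was chosen with earlier results of these data known, so these values describe it and are no test. Tagln, 1 of the 16, had only 9 to 14 reads per library. An unadjusted p under 0.05 was found for 4 higher genes (2.74% of all) and 1 lower gene (4.02% of all), and 0 passed an adjusted p under 0.05 in edgeR. Ctgf, a matricellular growth factor, had 1615, 1102 and 1013 CPM in WT and 2056, 2064 and 1600 CPM in libraries labelled eIF5A-KO, a log2 difference of 0.62 (adjusted p = 0.64) with overlapping groups. Col1a1 and Col1a2, the chains of type I collagen, had log2 differences of 0.72 and 0.71 (adjusted p = 0.504 and 0.495), and their groups did not overlap. Bhlhe40, a transcriptional repressor, had a log2 difference of 0.68 (adjusted p = 0.398). Cyr61, the most abundant target per length, had one of 0.43 (unadjusted p = 0.0787). The lower gene at an unadjusted p under 0.05 was Id2, an inhibitor of bHLH factors and a target of BMP signalling. Id2 had 113, 131 and 115 CPM in WT and 77.6, 62.5 and 72.3 CPM in libraries labelled eIF5A-KO, a log2 difference of -0.76 (SE 0.17, adjusted p = 0.362 in edgeR). Col3a1 was the other target with a negative log2 difference, -0.14, while Id1 and Id3 had 0.13 and 0.17. The list median ranged from 0.28 without replicate 1 labelled eIF5A-KO to 0.47 without replicate 3 labelled eIF5A-KO.

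**Figure D4:**
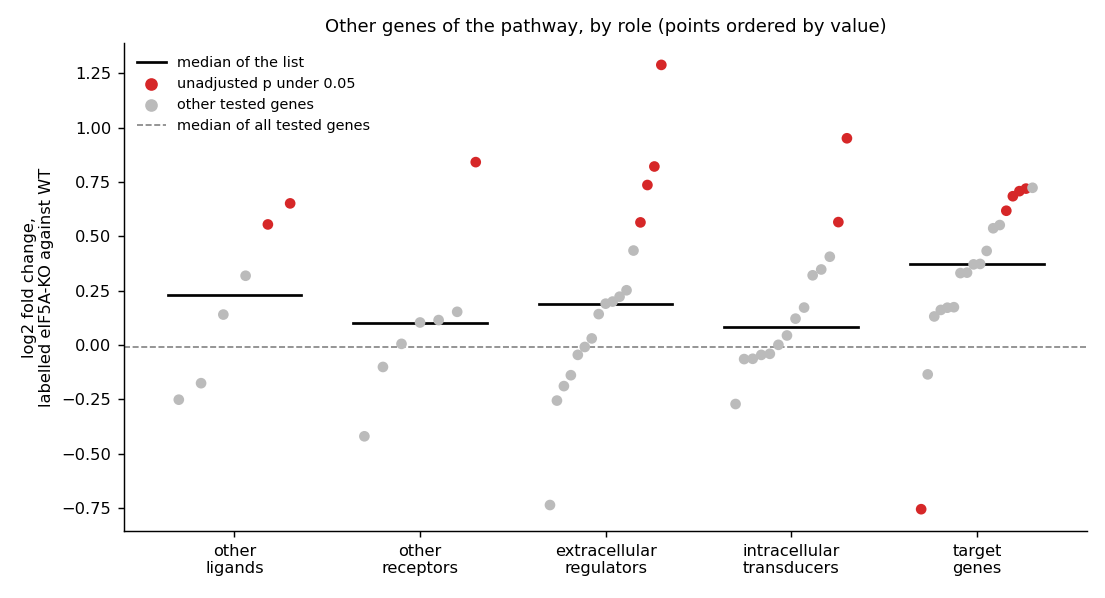
Log2 difference, libraries labelled eIF5A-KO against WT (vertical axis), of the 62 tested other genes of the pathway, grouped by role and ordered by value within a role, with red for an unadjusted p under 0.05 and black lines for the medians of the lists. The median of the 18 targets, 0.37, lies highest above that of all tested genes (dashed, -0.01), and Id2 lies lowest among the targets.

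Marker lists of other cell types were compared in the same libraries by counts and summed levels, with no test of a list, and over all genes 2.74% were higher and 4.02% lower at an unadjusted p under 0.05. Mural cell markers, smooth muscle and pericyte genes, summed to 375 to 692 CPM in WT and 750 to 849 CPM in libraries labelled eIF5A-KO without overlap, with 8 of 8 genes higher and 4 at an unadjusted p under 0.05. Among them Myh11, the smooth muscle myosin heavy chain, named after its values were seen, was 1 of the 3 genes called over the whole table, with a log2 difference of 1.52 (adjusted p = 0.0486 in edgeR), and with the size factors of DESeq2 in edgeR no gene was called. Pdgfrb had the highest level of the 8 in every library and so weighed most in the sum. It had 162, 247 and 218 CPM in WT replicates 1 to 3 and 417, 368 and 318 CPM in replicates 1 to 3 labelled eIF5A-KO. Levels of Rgs5, Notch3, Abcc9 and Mcam overlapped between the groups. The sums of endothelial markers overlapped, with 10 of 10 genes higher and 2 of them at an unadjusted p under 0.05, and Eng belongs to this list as well. Fibroblast markers were higher for 4 of 9 tested genes and macrophage markers for 7 of 9, with 0 and 1 at an unadjusted p under 0.05, and macrophage markers summed to 62.7 to 140 CPM and 67.8 to 170 CPM. Markers of differentiated muscle were lower for 9 of 9 tested genes, 6 of them at an unadjusted p under 0.05, with sums of 278 to 560 CPM and 202 to 293 CPM, and myogenic markers were lower for 6 of 7 tested genes, 1 of them (Pax7) at an unadjusted p under 0.05. None of the listed markers was at 0 in all libraries, and Aif1, Mymx and Chrdl2 were at 0 in at least 1. Among the 6 libraries, WT replicate 1 had the lowest sums of myogenic, endothelial and mural markers and the highest sum of fibroblast markers, and it had the lowest Tgfb1, Tgfb2, Tgfb3, Tgfbr2 and Acvr2b and the highest Fst, Fstl3 and Tgfbr1. The part of these cell types in the values of the pathway genes was not tested.

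**Figure D5:**
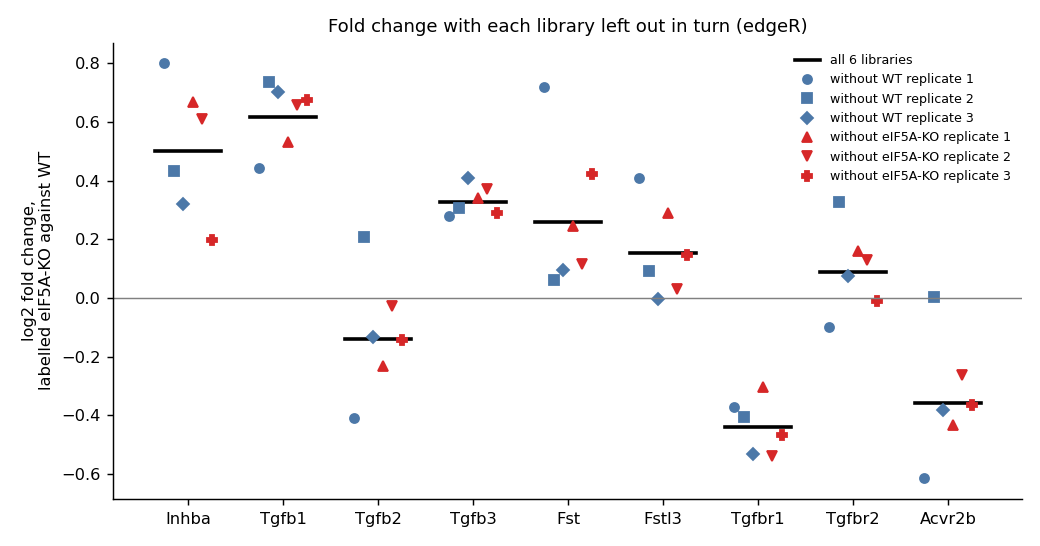
Log2 difference of the 9 tested genes (vertical axis) with all 6 libraries (black line) and with each library left out in turn (blue for a WT library, red for one labelled eIF5A-KO), from edgeR. Tgfb1 stays between 0.44 and 0.74 and Tgfbr1 between -0.54 and -0.30, while Tgfb2, Fstl3, Tgfbr2 and Acvr2b cross 0 in at least 1 fit.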

How the data were processed

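The data are RNA-seq libraries from primary myoblasts, 3 per genotype, collected at day 2. Per the labels, RNA was extracted with TRIzol and sequenced after an NEBNext Ultra preparation. The authors mapped reads to mm10 with HISAT and deposited raw counts per gene, with read coverage per gene obtained from a tool that the methods name DEGSeq2. The gene annotation and counting rules are not given in the sources used here. The authors also deposited FPKM, scaled to median-of-ratios size factors (as DESeq2 makes them) rather than to each library total. Library totals are from 16281216 to 17734551 counts.

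Counts were tested with edgeR 4.0.16 in R 4.3.3 (filterByExpr with a minimum count of 10, TMM factors, quasi-likelihood F test, Benjamini-Hochberg adjustment over 14679 genes, threshold 0.05, no covariate). The standard error is the log2 fold change divided by the root of F. Alternatives were DESeq2 1.42.0, limma 3.58.1 on log2(FPKM + 1) or log2(FPKM + 0.1), other scaling factors and filters, a replicate block and each library left out. The test was checked on simulated counts of 14425 genes, where edgeR called 102 of 109 genes altered by 2 on the log2 scale and 28 of 84 altered by 1, with 15 unchanged genes called. Each gene was drawn on its own, without shifts shared across a library. Smaller changes, such as the largest log2 difference of the members, 0.62, were not simulated.

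The members and lists were chosen with earlier results of these data known. Named were all members, pathway genes whose unadjusted p was under 0.05, the most abundant gene of each list per length and the closest gene of each tested member, which for Tgfbr2 is not reported here. Coordinates equal those of GENCODE M21 (GRCm38). Annotated exons of antisense or neighbouring genes overlap those of Tgfb2, Tgfb3, Fst and Fstl3, with at most 5 counts per library on any of these overlapping genes. With blastn 2.17.0, transcripts of other genes aligned over at least 200 bases at 90% identity only for Tgfb3 and Fstl3, to such overlapping genes. Strand handling of the counts was not stated.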

Additional observations from a re-analysis of the deposited data

How the results depend on the processing

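In all 14 alternatives 0 of the tested members passed an adjusted p under 0.05, and Inhba, Tgfb1, Tgfb3, Fst and Tgfbr1 kept their direction. The number of members with an unadjusted p under 0.05, 2 with all libraries, was 1 with limma on log2(FPKM + 1) and 1 with the replicate block, and ranged from 0 to 3 with single libraries left out. Without WT replicate 1 the 3 were Inhba, Tgfb1 and Fst, and without replicate 1 labelled eIF5A-KO there were 0. Over all tested genes such a p was met by 6.76% with all libraries. The share was 10.2% without WT replicate 1 and 3.88% without replicate 1 labelled eIF5A-KO. It was 6.68% with limma on log2(FPKM + 1) and 5.96% with the replicate block. The pathway genes with such a p, 14 with all libraries, ranged from 12 to 18. They were 12 without WT replicate 3 (5.28% of all genes) and without replicate 1 (3.88%) or 2 (4.81%) labelled eIF5A-KO. They were 18 without a filter (6.32%) and without WT replicate 2 (8.82%), and 16 without WT replicate 1 (10.2%). Over all genes, the 3 calls became 0 with the size factors of DESeq2, 0 with at least 10 counts in every library, 0 and 0 with limma, 24 with the replicate block, 88 with DESeq2 and 249 without a filter, where Bgn, Eng, Smad6 and Grem1 were among them, and ranged from 0 to 56 with single libraries left out, the 56 without WT replicate 1, where Postn and Grem1 were among them. In these 4 fits with 0 calls on all 6 libraries the unadjusted p was under 0.05 for 992, 907, 980 and 980 genes, and in the 5 without 1 library for 585 to 1318. The cause was not tested.

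With single libraries left out, Tgfb2 ranged from -0.41 to 0.21, Fstl3 from -0.0038 to 0.41, Tgfbr2 from -0.10 to 0.33 (-0.01 without replicate 3 labelled eIF5A-KO), Acvr2b from -0.61 to 0.0038 and Eif5a from -0.13 to 0.23, with -0.0090 and -0.065 without replicate 1 and 2 labelled eIF5A-KO. The replicate numbers showed no clear pairing of the libraries: deviations of same-numbered libraries from their group means correlated with 0.084, -0.160 and 0.105 across genes. WT replicates 1 and 2 correlated best with another number, and WT replicate 3 with its own. With 3 libraries per group these values cannot exclude a pairing. Fits without a library leave 2 in a group. Mstn, with at most 3 reads per library, entered only the fit without a filter, and levels this low cannot be compared at this depth. Acvr2b and Tgfb2 rest on 34 to 184 reads.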
